A study of Mus musculus with 18 samples.

Results

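The transcripts described here are those of 9 voltage-gated sodium channel subunit genes in injured mouse sensory neurons. The members are *Scn1a*, *Scn2a*, *Scn3a*, *Scn8a*, *Scn9a*, *Scn10a* and *Scn11a*, which encode pore-forming alpha subunits, and *Scn2b* and *Scn3b*, which encode beta subunits. They were taken by gene symbol, 9 of 47643 genes listed, and all 9 were among the 13771 genes tested. RNA was sequenced from eDRG spot cultures, in which dorsal root ganglion neurons of CD-1 mice at stage e13.5 are plated as a spot so that their axons grow outward. Every group, the control included, was grown with FDU, a drug that stops the division of non-neuronal cells. Control spots were not injured and were collected at DIV7, the seventh day in vitro, and the other groups were cut with a blade and collected 1, 3, 8, 16 or 24 h post injury (HPI). The sample labels place every collection at DIV7, whereas the paper's methods place the cut there. With 1 control group for all times, time in culture around the cut and time after injury cannot be told apart. There were 3 libraries in each of the 6 groups, 18 in all. The spots hold neurons of embryonic ganglia without their targets or glia, which limits them as a model of an adult nerve.

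A sodium channel alpha subunit folds into 4 homologous domains around one pore and carries the inward current of the action potential. Beta subunits are small membrane proteins with an immunoglobulin fold that set the surface level and gating of the alpha subunit. In dorsal root ganglion neurons Scn9a (Nav1.7) boosts slow depolarizations, Scn10a (Nav1.8) carries most of the action potential upstroke of nociceptors and Scn11a (Nav1.9) gives a persistent current near rest. Scn8a (Nav1.6) and Scn1a (Nav1.1) serve fast firing in myelinated neurons, with Scn8a at nodes, and Scn2a (Nav1.2) and Scn3a (Nav1.3) are channels of the embryo and brain. Tetrodotoxin (TTX) blocks the channels of Scn1a, Scn2a, Scn3a, Scn8a and Scn9a at low dose, and those of Scn10a and Scn11a resist it.

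The stretch of coding sequence that separates the TTX-sensitive from the TTX-resistant members is shown because the groups below follow it. It lies in the pore loop of the first domain, is shown as 27 bases for 6 of the alpha subunits and is read from GENCODE vM21 transcripts on GRCm38, 5′ to 3′ along the coding strand. Capitals mark the codon of the residue that meets the toxin.
Scn2a: atgactcaagacTTCtgggaaaacctt
Scn3a: atgactcaagacTACtgggagaacctt
Scn8a: atgactcaggacTACtgggagaactta
Scn9a: atgactcaggacTACtgggagaacctt
Scn10a: atgacgcaggacTCCtgggaacggctg
Scn11a: atgactcaagacTCCtgggagaagctt

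The codon reads phenylalanine in *Scn2a* (codon 385), and tyrosine in *Scn3a* (codon 384), *Scn8a* (codon 371) and *Scn9a* (codon 362). It reads serine in *Scn10a* (codon 356) and *Scn11a* (codon 385). The stretches are exonic and coding in all 6 genes. They lie at chr2:65688424-65688450 on the plus strand for *Scn2a* and chr2:65521801-65521827 on the minus strand for *Scn3a*. That of *Scn9a* is at chr2:66548989-66549015 on the minus strand and that of *Scn8a* at chr15:100971626-100971652 on the plus strand. The stretches of the TTX-resistant pair are at chr9:119666375-119666401 for *Scn10a* and chr9:119805668-119805694 for *Scn11a*, both on the minus strand.

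The genes sit in clusters. *Scn3a* (ENSMUSG00000057182.14), *Scn2a* (ENSMUSG00000075318.12), *Scn1a* (ENSMUSG00000064329.13) and *Scn9a* (ENSMUSG00000075316.11) follow each other on chromosome 2 from 65457118 to 66634962. *Scn10a* (ENSMUSG00000034533.10) and *Scn11a* (ENSMUSG00000034115.10) are neighbours on chromosome 9 from 119608456 to 119825456. *Scn8a* (ENSMUSG00000023033.14) is on chromosome 15 from 100869858 to 101045938. *Scn3b* (ENSMUSG00000049281.16) starts at 40269217 and *Scn2b* (ENSMUSG00000070304.12) at 45117782 of chromosome 9. Paralogs can share reads: the coding sequences of *Scn1a* and *Scn2a* were identical at 83.3% of aligned bases with one shared run of 188 bases, and *Scn3a* and *Scn9a* shared a run of 184 bases. Pairs that include *Scn8a* shared at most 55 bases in a row, and pairs that include *Scn10a* or *Scn11a* at most 35. How reads that fit several genes were treated is not given in the sources used here, so values within the chromosome 2 cluster are the less certain ones. *Scn9a* shares 180 exon bases with the antisense gene *Gm13629*, which held 3 to 40 counts per library, and strand was not stated for the counting.

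Counts on genes ranged from 9478891 to 23082327 per library, with the fewest in 8HPI replicate 2. Levels are given as CPM, the usual depth-scaled count of a gene, after TMM normalization, and per exon length as RPKM where genes are compared. The 9 sensory neuron markers, among them *Tubb3*, *Avil*, *Calca*, *Prph*, *Uchl1*, *Elavl4*, *Snap25* and *Nefl*, summed to between 12610 and 14060 CPM in control and to between 11330 and 12890 CPM at 16HPI. By the test described below, 2 of these 9 markers were lower than in control at 16HPI (*Tubb3* and *Elavl4*), and 2 were lower and 1 higher at 24HPI. Between 8HPI and 16HPI, 5 of the 9 passed as lower. Markers of satellite glia, myeloid, endothelial, Schwann and neural crest cells, 3 genes for each type, summed to at most 6.59 CPM per type in any library, with *Ptprc*, *Cldn5* and *Gfap* at or under 3 counts in every control library. The myeloid gene *Cd68* was higher at 16HPI and 24HPI, at 1.72 and 1.67 CPM against 0.868 CPM in control, and *Nes* was higher at 24HPI. The part of these markers in the results below was not tested.

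Per exon length, *Scn10a* led the members in control spots, with 61.4 ± 8.8 RPKM (SD, n = 3), and the beta subunit gene *Scn3b* followed with 55.1 ± 3.6 RPKM. *Scn9a* had 47.1 ± 2.4 RPKM and *Scn2b* 39.6 ± 2.2 RPKM. These 4 genes stood between ranks 566 and 998 of 13728 genes ranked by RPKM in control. The other alpha subunits formed a lower tier, with *Scn8a* at 8.03 ± 0.71, *Scn1a* at 6.85 ± 1.11, *Scn3a* at 6.72 ± 0.78, *Scn2a* at 6.16 ± 0.27 and *Scn11a* at 5.25 ± 2.58 RPKM. The control libraries of *Scn10a* and *Scn3b* overlapped, and so did each pair of neighbours from *Scn8a* down to *Scn11a*. By contrast, *Scn3b* against *Scn9a*, *Scn9a* against *Scn2b* and *Scn2b* against *Scn8a* did not overlap.

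**Figure D1:**
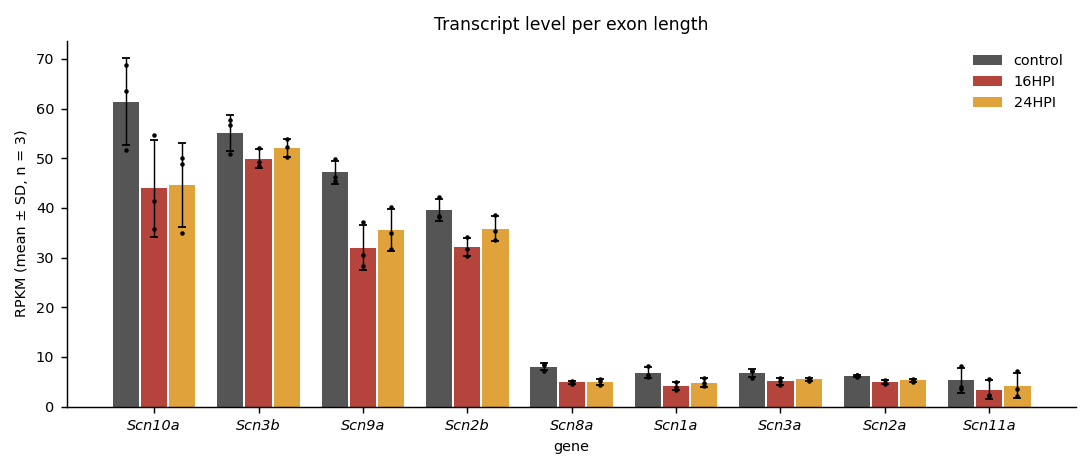
Level of each subunit transcript per exon length (y axis, RPKM) by gene (x axis) in control, 16HPI and 24HPI spots; bars are means with SD over 3 libraries and dots are the libraries. *Scn10a*, *Scn3b*, *Scn9a* and *Scn2b* form an upper tier in all 3 groups, and *Scn8a* down to *Scn11a* a lower one.

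The summed alpha subunit level was 141.5 ± 12.2 RPKM in control and lay at 120.3, 122.9 and 119.3 RPKM at 1, 3 and 8HPI. It was 98.4 ± 16.4 RPKM at 16HPI and 105.0 ± 14.7 RPKM at 24HPI, where the highest library of either time, at 117.1 RPKM, was below the lowest control at 129.3 RPKM. *Scn10a* made up 43.2% ± 2.8 of it in control and 44.4% ± 2.4 at 16HPI, and *Scn9a* 33.4% ± 2.0 and 32.6% ± 0.9. The TTX-resistant pair together held 46.9% ± 3.7 in control, 47.7% ± 3.7 at 16HPI and 46.1% ± 3.9 at 24HPI. These shares moved by less than 1 SD of the control libraries. The shares of *Scn8a* and *Scn2a* moved by more: that of *Scn8a* was 5.72% ± 0.91 in control and 4.80% ± 1.09 at 24HPI, and that of *Scn2a* 4.38% ± 0.54 in control and 5.14% ± 1.02 at 16HPI. In both genes the libraries of these times overlapped. Overlap and SD leave out the pairing by replicate number, and changes of the shares within replicates were not tested.

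Each time after injury was compared with control to ask when the channel transcripts respond to axotomy. A gene passed with an adjusted p under 0.05 in edgeR's quasi-likelihood test, Benjamini-Hochberg adjusted over all 13771 genes, in a model with time and replicate number, and adjusted p-values below come from it. The time points share the control libraries. No member reached the additional 2-fold limit of the study's own rule in any of the 7 comparisons.

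At 1HPI 2 of the 9 members fell, *Scn8a* and *Scn10a*, where 0.182% of all genes tested passed as lower. The median log2 fold change was -0.18 over the members and 0.00 over all genes. At 3HPI 0 members passed, against 0.145% of all genes passing as lower. At that time 4 members had an unadjusted p under 0.05 in edgeR, *Scn8a*, *Scn9a*, *Scn10a* and *Scn11a*. Of all 13771 genes, 1999 had such a p in either direction. The DESeq2 Wald test passed 3 members at its adjusted p. The calls at 1HPI were lost without the replicate term and without any one of 5 of the 6 libraries, all but 1HPI replicate 3, when 0 members passed.

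By 8HPI 4 members had fallen, *Scn1a*, *Scn8a*, *Scn9a* and *Scn10a*, against 3.9% of all genes passing as lower, and the median of the members was -0.23. The beta subunits did not pass, with log2 fold changes of 0.02 ± 0.06 (SE) for *Scn2b* and -0.04 ± 0.05 for *Scn3b*. Without the replicate term 0 members passed, and without control replicate 2 or 8HPI replicate 3 only *Scn8a* did.

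At 16HPI all 9 members fell, against 11.5% of all genes passing as lower. Their median log2 fold change was -0.49, where that of all genes was 0.00. In 5 members the 3 libraries at 16HPI all lay below the 3 control libraries, which was so for 9.49% of all genes. The count was 6 without the replicate term, where *Scn10a*, *Scn11a* and *Scn3b* were lost, and the direction was lower for all 9 in each of the 16 alternatives. In bulk RNA, fewer cells of a type and less RNA per cell cannot be told apart.

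At 24HPI 7 members were lower than in control, all alpha subunits and neither beta subunit, against 9.03% of all genes, and the median of the members was -0.35. Without the replicate term only *Scn8a* passed at 24HPI. Between 8HPI and 16HPI 8 members fell, all but *Scn3b*, against 7.88% of all genes, while without that term 1 passed, *Scn2b*. Without 8HPI replicate 1 or 16HPI replicate 3 the count between 8HPI and 16HPI was 5. Of the 9 sensory neuron markers, 5 also passed as lower between 8HPI and 16HPI. Their median log2 fold change was -0.175, where that of the members was -0.31. From 16HPI to 24HPI 1 member rose, *Scn1a*, against 3.59% of all genes passing as higher, and 0 fell, against 6.22% passing as lower. In edgeR 4 members had an unadjusted p under 0.05 between these times, *Scn1a*, *Scn9a*, *Scn11a* and *Scn2b*, all higher at 24HPI. Such a p, in either direction, was found in 3280 of all 13771 genes. At the adjusted p 1 member passed, in edgeR and in DESeq2 alike. That single call was lost without the replicate term and without 16HPI replicate 1, 16HPI replicate 2, 24HPI replicate 1 or 24HPI replicate 3, and without 24HPI replicate 2 the count was 3.

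**Figure D2:**
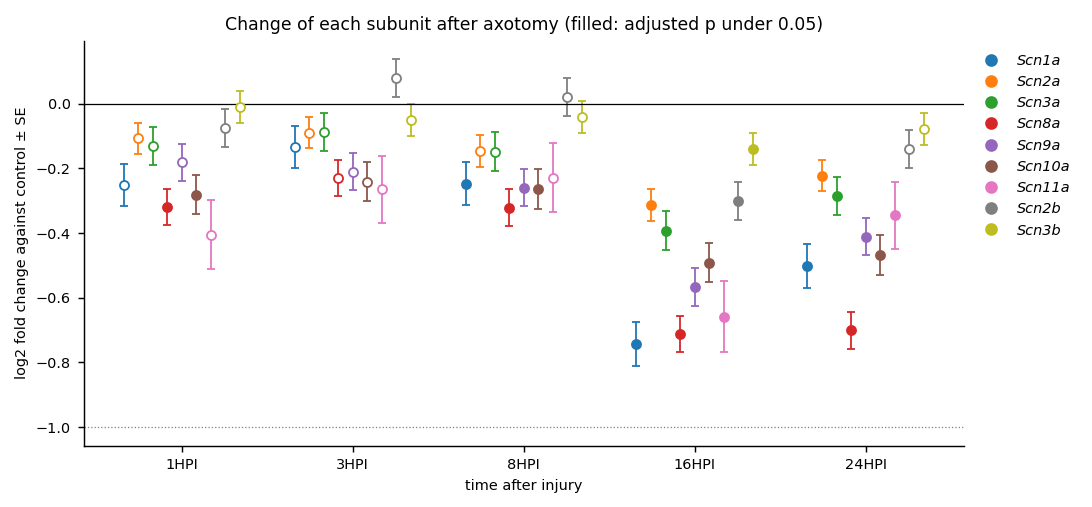
Log2 fold change against control (y axis) with its SE for the 9 subunits at each time after injury (x axis); filled points have an adjusted p under 0.05 and the dotted line marks a 2-fold fall. All 9 points are filled and below 0 at 16HPI, and 7 at 24HPI, with no point at the dotted line.

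*Scn8a*, the nodal channel, passed at 1, 8, 16 and 24HPI, and at 24HPI its fold change was the largest of the 9. It had 113.9, 131.2 and 134.7 CPM in control replicates 1, 2 and 3, and 87.6, 101.4 and 116.4 CPM at 1HPI. At 16HPI it had 72.2, 76.9 and 82.6 CPM, and at 24HPI 66.9, 80.6 and 86.3 CPM. Every library from 16 and 24HPI lay below every control library, while at 1HPI the highest library overlapped the lowest control. The log2 fold change was -0.32 ± 0.06 (SE) at 1HPI (adjusted p = 0.0214) and -0.32 ± 0.06 at 8HPI (adjusted p = 0.00134). At 16HPI it was -0.71 ± 0.06, a level of 61.1% of control (adjusted p = 4.58e-08), and at 24HPI -0.70 ± 0.06 (adjusted p = 1.38e-07). Between 16 and 24HPI it differed by 0.01 ± 0.06, which did not pass (adjusted p = 0.941). *Scn8a* passed at 24HPI in all 16 alternatives, with log2 fold changes from -0.721 to -0.545, the smallest fall with offsets for GC content and length. Its call at 1HPI held in 8 of 16.

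*Scn1a*, the other channel of fast-firing neurons, had 71.7, 66.9 and 90.3 CPM in control, 44.3, 37.3 and 55.4 CPM at 16HPI and 52.4, 45.1 and 64.3 CPM at 24HPI. Replicate 3 was the highest library and replicate 2 the lowest in all 3 groups, and neither late group overlapped control. At 16HPI the log2 fold change was -0.74 ± 0.07, to 59.8% of control (adjusted p = 2.1e-07), the largest fall among the members at any time. At 24HPI it was -0.50 ± 0.07 (adjusted p = 3.58e-05). Between these times *Scn1a* rose by 0.24 ± 0.07 on the log2 scale (adjusted p = 0.0293), higher in 3 of 3 replicate numbers, with an adjusted p between 0.0159 and 0.732 over the alternatives. At 8HPI it was -0.25 ± 0.07 (adjusted p = 0.0276), and this call was lost in 7 of 16 alternatives, among them those without replicate 2 or 3 of control or replicate 1 or 3 of 8HPI, with adjusted p-values up to 0.768.

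**Figure D3:**
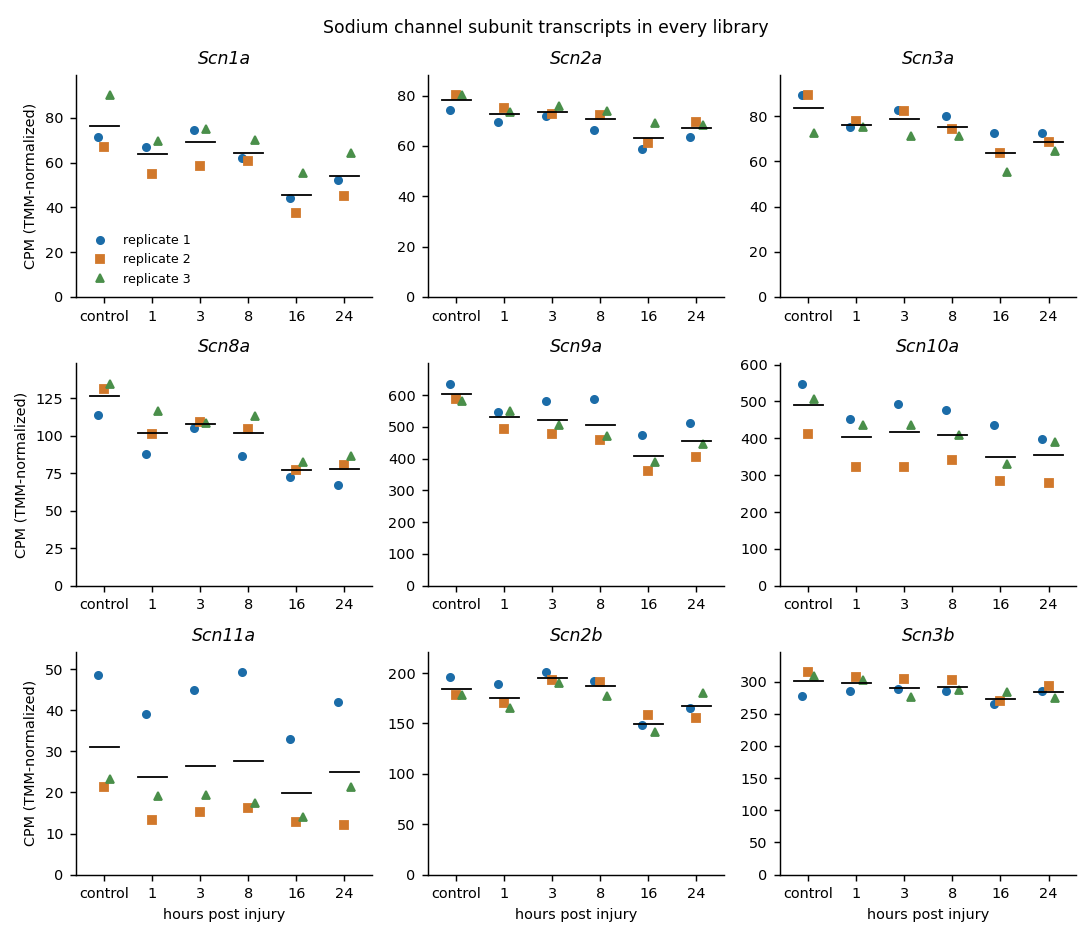
TMM-normalized CPM (y axis, from 0) of each subunit in all 18 libraries by group (x axis, control or hours post injury); symbols mark replicates 1, 2 and 3 and bars the group means. The lowest group mean is at 16HPI in all 9 genes, and replicate 1 of *Scn11a* stands above the other 2 replicates at every time.

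*Scn9a*, whose product amplifies small depolarizations in nociceptors, had 636.3, 589.2 and 580.2 CPM in control and 473.8, 361.9 and 390.9 CPM at 16HPI. At 24HPI it had 512.6, 404.4 and 447.6 CPM, again without overlap with control. On the log2 scale it changed by -0.57 ± 0.06 at 16HPI (adjusted p = 8.23e-07) and -0.41 ± 0.06 at 24HPI (adjusted p = 6.88e-05). The difference at 8HPI was -0.26 ± 0.06 (adjusted p = 0.00921), which did not pass without control replicate 2 or 8HPI replicate 3 and reached an adjusted p of 0.586 at most over the alternatives. From 16 to 24HPI it was higher by 0.16 ± 0.06, which did not pass (adjusted p = 0.0981).

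*Scn10a*, the TTX-resistant channel of the nociceptor upstroke, had 548.4, 412.0 and 506.5 CPM in control. At 16HPI it had 436.2, 284.4 and 330.2 CPM and at 24HPI 398.8, 277.9 and 389.2 CPM. Replicate 2 was the lowest library in every group, so that the groups overlapped at 16HPI although each replicate fell by itself, by 0.33, 0.53 and 0.62 on the log2 scale. The fitted log2 fold change was -0.49 ± 0.06 at 16HPI (adjusted p = 6.88e-06) and -0.47 ± 0.06 at 24HPI (adjusted p = 2.82e-05). Both calls depended on the replicate term, and the largest adjusted p over the alternatives was 0.203 at 16HPI and 0.333 at 24HPI. The earlier falls were -0.28 ± 0.06 at 1HPI (adjusted p = 0.0498) and -0.26 ± 0.06 at 8HPI (adjusted p = 0.0106). At 8HPI the call was lost without control replicate 2 or 8HPI replicate 3, with adjusted p-values up to 0.83.

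*Scn11a*, the channel of the persistent current, was the lowest and the most uneven member. In control it had 48.7, 21.4 and 23.3 CPM, a coefficient of variation of 49.1%, where no other member exceeded 16.2% in control. At 16HPI it had 33.1, 12.9 and 13.99 CPM and at 24HPI 42.1, 12.01 and 21.3 CPM. Replicate 1 lay above the other 2 replicates in all 6 groups, and the late groups overlapped control. The fall at 16HPI was -0.66 ± 0.11 (adjusted p = 0.00015), with -0.56, -0.74 and -0.73 in replicates 1, 2 and 3, and its adjusted p reached 0.653 without the replicate term or with a RUVs factor in its place. At 24HPI it was -0.35 ± 0.10 (adjusted p = 0.0282), a call lost without replicate 2 or 3 of control or replicate 1 or 2 of 24HPI and with adjusted p-values up to 0.885.

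*Scn2a* and *Scn3a*, the embryonic and brain channels, had the smallest fold changes among the alpha subunits at 16 and 24HPI. *Scn2a* had 74.5, 80.3 and 80.4 CPM in control and 58.6, 61.3 and 69.1 CPM at 16HPI, with no overlap, and its log2 fold change was -0.31 ± 0.05 (adjusted p = 8.5e-05). At 24HPI it had 63.6, 69.5 and 68.2 CPM and the change was -0.22 ± 0.05 (adjusted p = 0.00336). *Scn3a*, which is known to rise in injured adult sensory neurons in vivo, had 89.4, 89.3 and 72.6 CPM in control and 72.6, 63.7 and 55.3 CPM at 16HPI. The groups just overlapped, at 72.6 CPM in the lowest control and the highest library at 16HPI. On the log2 scale it differed from control by -0.39 ± 0.06 at 16HPI (adjusted p = 6.7e-05) and -0.28 ± 0.06 at 24HPI (adjusted p = 0.00249), lower in 3 of 3 replicates at both times. No time point gave a higher group mean of *Scn3a* than control.

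Among the 9 members, the 2 beta subunits had the smallest fold changes at 16 and 24HPI. This ranking leaves out *Scn4b*, a beta subunit gene that is not a member and is given below. *Scn2b*, whose product is bound to the alpha subunit by a disulfide bridge, had 196.2, 177.8 and 178.7 CPM in control and 148.1, 158.8 and 141.5 CPM at 16HPI, with no overlap. The log2 fold change at 16HPI was -0.30 ± 0.06 (adjusted p = 0.000774). At 3HPI *Scn2b* was the one member above control, at 200.8, 193.6 and 189.9 CPM, a difference of 0.08 ± 0.06 (log2) that did not pass (adjusted p = 0.557). At 24HPI it had 164.9, 155.8 and 179.8 CPM and -0.14 ± 0.06, which did not pass (adjusted p = 0.112) except without 24HPI replicate 3.

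*Scn3b*, whose product binds the alpha subunit without such a bridge, had 277.9, 314.6 and 309.6 CPM in control and 264.9, 269.3 and 284.0 CPM at 16HPI, where the groups overlapped. The log2 difference of -0.14 ± 0.05 at 16HPI (adjusted p = 0.0466) was the smallest fall of the 9 and passed in 7 of 16 alternatives. That call was lost without replicate 2 or 3 of control or replicate 1 or 2 of 16HPI, and its adjusted p ranged from 0.0155 to 0.231. At 24HPI it had 284.9, 293.8 and 274.4 CPM and -0.08 ± 0.05 (adjusted p = 0.304).

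Between 8 and 16HPI the falls of the alpha subunits ranged from -0.17 ± 0.05 for *Scn2a* (adjusted p = 0.0254) to -0.50 ± 0.07 for *Scn1a* (adjusted p = 7.4e-05). *Scn2b* fell by 0.32 ± 0.06 (adjusted p = 0.000918), from 192.5, 191.6 and 177.0 CPM at 8HPI, and the libraries did not overlap. It was the only member whose call held in all 16 alternatives. *Scn2a* held in 6 of 16, while *Scn3a*, *Scn10a* and *Scn11a* held in 12, 11 and 11.

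Further relatives of the family were measured in the same libraries. *Scn7a*, the sodium-sensing relative known as Nax, was more abundant than any member at 706.3 ± 110.5 CPM and 96.3 ± 15.1 RPKM in control. It fell to 450.5 ± 67.2 CPM at 16HPI, a log2 fold change of -0.65 ± 0.07 (adjusted p = 2.01e-06), and was at 558.1 ± 98.5 CPM and -0.34 ± 0.07 at 24HPI (adjusted p = 0.00256). The call at 24HPI was lost without the replicate number in the fit and with a RUVs factor in its place. Between 16HPI and 24HPI *Scn7a* rose by 0.31 ± 0.07 (adjusted p = 0.0086), a call lost without 16HPI replicate 1 or 24HPI replicate 3. The sodium leak channel gene *Nalcn* fell from 100.1 ± 8.2 CPM in control to 81.8 ± 5.6 CPM at 16HPI, by 0.29 ± 0.05 on the log2 scale (adjusted p = 0.000201).

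The beta subunit gene *Scn4b* was low in these cultures, at 4.46 ± 1.51 CPM in control and 2.40 ± 0.66 CPM at 16HPI, a log2 difference of -0.87 ± 0.19 (adjusted p = 0.00177). That call was lost without the replicate number in the fit and with a RUVs factor in its place. At 24HPI the *Scn4b* difference of -0.54 ± 0.17 passed (adjusted p = 0.0397) but held in 6 of 16 alternatives. It was lost without replicate 1 or 2 of control or replicate 1 or 2 of 24HPI. *Scn4a*, the muscle channel, had a mean of 0.383 CPM in control and was not tested.

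**Figure D4:**
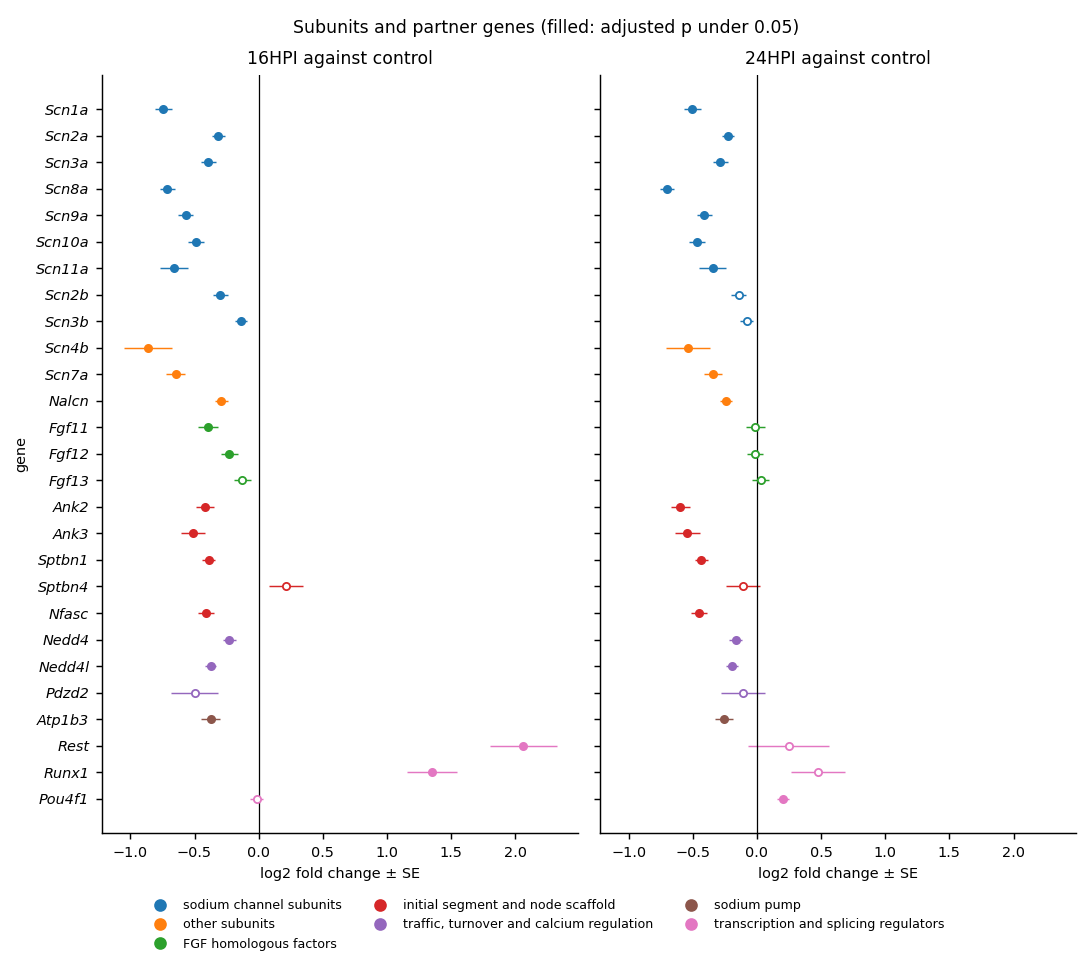
Log2 fold change with its SE (x axis) of the 9 subunits and the partner genes named in the text (y axis, coloured by group) at 16HPI and 24HPI against control; filled points have an adjusted p under 0.05. In the scaffold group 4 of the 5 genes shown are filled and below 0 at both times, whereas *Rest* and *Runx1* stand far above 0 at 16HPI.

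A list of 8 genes of the axonal membrane scaffold, among them genes of the initial segment and node, was also tested. Not all of them anchor sodium channels. Of these 8, 7 passed as lower at both late times, against 11.5% of all genes at 16HPI and 9.03% at 24HPI. Without the replicate number in the fit, 4 of the 8 passed at 16HPI and 3 at 24HPI. The median over the 8 was -0.35 at 16HPI and -0.44 at 24HPI on the log2 scale. *Sptbn1* fell from 1591 ± 101 CPM in control to 1215 ± 111 CPM at 16HPI, by 0.39 ± 0.05 (adjusted p = 1.09e-05). *Ank2* fell to 1371 ± 18 CPM at 24HPI from 2073 ± 151 CPM, by 0.60 ± 0.07 (adjusted p = 1.67e-05), though offsets for GC content and length brought the difference to -0.31. *Nfasc*, which encodes the adhesion protein neurofascin, was already lower at 1HPI (-0.29 ± 0.06, adjusted p = 0.0471), though that call held in 6 of 16 alternatives and in none that left out a library. At 24HPI *Nfasc* was at -0.45 ± 0.06 (adjusted p = 3.67e-05). *Ank3*, which encodes ankyrin G, the adaptor that holds sodium channels at the initial segment, was not among the 3 genes named by rule and is given after its values were seen. It had passed by 3HPI (-0.46 ± 0.09, adjusted p = 0.0468), a call lost without replicate 2 or 3 of control or replicate 2 or 3 of 3HPI. That call was also lost without the replicate number in the fit, with a RUVs factor in its place and with the GC and length offsets (-0.26). At 24HPI *Ank3* was at -0.54 ± 0.09 (adjusted p = 0.000536) and at -0.26 with the GC and length offsets. *Sptbn4* was the scaffold gene that did not pass, with 35.5 ± 9.7 CPM in control and 40.7 ± 9.4 CPM at 16HPI.

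The FGF homologous factors bind the tail of the alpha subunit and set its inactivation. At 16HPI 2 of 4 passed as lower, against 11.5% of all genes, and neither passed without the replicate number in the fit. These were *Fgf11* by 0.40 ± 0.08 (adjusted p = 0.000781) and *Fgf12* by 0.23 ± 0.07 (adjusted p = 0.0139), the latter lost without replicate 2 of control or replicate 1 or 2 of 16HPI. At 24HPI *Fgf11* and *Fgf12* were at -0.01 ± 0.08 and -0.02 ± 0.06 against control, which did not pass. *Fgf11* went from 27.9 ± 6.9 to 36.3 ± 7.2 CPM between these times (log2 fold change 0.39 ± 0.08, adjusted p = 0.00263), with 36.5 ± 5.5 CPM in control. *Fgf13* did not pass against control at any time.

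Among 8 genes of channel traffic, turnover and calcium regulation, the ubiquitin ligase genes *Nedd4l* and *Nedd4* were the 2 that passed as lower at 16HPI, against 11.5% of all genes. Neither passed without the replicate number in the fit. *Nedd4l*, whose product marks sodium channels for removal from the membrane, fell by 0.37 ± 0.05 at 16HPI (adjusted p = 5.43e-06) and *Nedd4* by 0.23 ± 0.05 (adjusted p = 0.00168). The adaptor gene *Pdzd2* did not pass at any time. The sodium pump restores the gradient that the channels use. Of its 6 genes, 3 passed as lower at 16HPI, against 11.5% of all genes. Among these 3 the beta subunit gene *Atp1b3* fell by 0.37 ± 0.07 (adjusted p = 0.000721), a call lost without the replicate number in the fit.

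Transcription and splicing regulators known from work on channel genes did not move one way. *Rest*, the repressor of neuronal genes in non-neuronal cells, lay between 0.661 and 1.01 CPM in control and between 3.28 and 4.19 CPM at 16HPI. It rose by 2.06 ± 0.26 on the log2 scale (adjusted p = 7.87e-06) and was at 1.01 ± 0.27 CPM at 24HPI, lower than at 16HPI by 1.82 ± 0.24 (adjusted p = 6.23e-05). *Runx1*, which specifies nociceptors, rose from 1.81 ± 0.63 CPM in control to 4.49 ± 0.95 CPM at 16HPI (1.35 ± 0.19, adjusted p = 3.61e-05). That call was lost without the replicate number in the fit. *Pou4f1*, a sensory neuron identity gene, was higher at 24HPI by 0.20 ± 0.05 (adjusted p = 0.0074), a call lost without control replicate 2. Letters known from sites of these factors were looked for in 9 RefSeq promoters of 7 members on GRCm38.p6, each a window of 300 bases around a start. The left part of the Rest site, TTCAGCACC on either strand, was in 0 of the 9 and in 0.37% of 32851 promoters of all genes. At so low a share, 0 of 9 cannot tell the members from other genes. Sites outside these windows were not looked for. The Runx letters TGTGGT on either strand were in 3 of the 9, both promoters of *Scn2a* and that of *Scn2b*, and in 16.8% of all promoters.

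Over the 18 libraries, with the replicate number removed, log2 CPM of the members correlated with each other at a Pearson r between 0.37 (*Scn2b* with *Scn3b*) and 0.95 (*Scn1a* with *Scn2a*). These values describe one time course, and the points share libraries and normalization. *Scn1a* with *Scn2a* and *Scn3a* with *Scn9a* (r = 0.94) are also the pairs with the shared runs of 188 and 184 coding bases. The part of shared reads in these correlations was not tested. Among all tested genes, the pattern of *Scn8a* was most like those of *Ncan* (r = 0.98), *Trpm3* and *Pitpnm2*. *Nfasc* and *Trpm3* (both r = 0.95) were among the 3 genes most like *Scn10a*, and the pattern of *Scn1a* was most like those of the mu opioid receptor gene *Oprm1* (r = 0.96), *Fat3* and *Tmtc1*. *Cntnap5a* and *Oprm1* (both r = 0.96) were among the 3 closest to *Scn9a*, and *Scn3a* was closest to *Cntnap5a* (r = 0.95), *Scn9a* and *Cdh2*. *Scn2a* came closest to *Srebf1* (r = 0.96), *Scn1a* and *Brinp1*, and *Scn11a* to the cold receptor gene *Trpm8* (r = 0.92), *Gria3* and *Thsd7b*. For the beta subunits the closest genes were *Cers4* (r = 0.95), *Kcnab2* and *Gdf11* for *Scn2b*, and *Kcnb2* (r = 0.93), *Ttc3* and *Ckap5* for *Scn3b*.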

How the data were processed

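RNA was sequenced from eDRG spot cultures in 18 libraries, 3 in each of 6 groups taken from the sample labels. The authors deposited counts per gene for each library, without normalization. Per the paper's methods reads were trimmed with cutadapt and aligned with STAR to the mm10 build, and featureCounts was used, while the submitters' processing notes name HTSeq. The 5 closing entries of each file, which name no gene, held 25.2% to 33.2% of its counts and were left out. GENCODE vM21 on GRCm38 named 47224 of 47643 identifiers and gave positions and exon lengths.

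Analyses of the counts ran under R 4.3.3, using DESeq2 1.42.0, limma 3.58.1 and edgeR 4.0.16, and those of sequences and figures under Python 3.11.15 with Biopython 1.88 and matplotlib 3.10.9. A gene was tested if 3 libraries or more had it above 1 CPM. A single quasi-likelihood model of all 18 libraries, with TMM factors, held time and the replicate number, which was taken as the batch since the study's methods name a batch correction. Samples of the same number deviated together in all 45 pairs (r of their deviations from the group means between 0.48 and 0.76, mean 0.62), so the numbers pair the samples. Tests are two-sided with Benjamini-Hochberg adjustment over all genes tested, and log2 CPM had a prior count of 2. Nothing states that replicates came from separate dissections, so p-values measure the spread left between these samples after time and replicate number are fitted. The limit of 3 counts covers counting error only, since reads carry no molecular identifiers, and it came to between 0.13 and 0.317 CPM per library.

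The members and lists were chosen with earlier results of these data known. The rule for named genes took the members, all other subunits, the 3 genes of each partner group with the smallest adjusted p against control, and the 3 genes whose log2 CPM correlated best with each member. Marker genes and any gene said to be chosen after its values were seen are further names. Some genes and 1 sequence that these rules would give are not reported here. Alternatives were DESeq2's size factors, upper-quartile factors, the DESeq2 Wald test, a filter of at least 10 counts over all libraries or of over 1 CPM in all 18, no replicate block, RUVs in the block's stead, GC and length offsets with the block, no rRNA or mitochondrial genes, a fit of only the 2 groups compared, and each library of a comparison dropped in turn, 16 for each comparison. On simulated counts for 16HPI against control over 13771 genes, 197 of 200 genes changed 3-fold were recovered, with 0 false calls under the same rule with its 2-fold limit and 10 at the adjusted p alone. The simulated means held no differences between replicate numbers. Recovery of changes under 2-fold, as in the members, was not tested.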

Additional observations from a re-analysis of the deposited data

Results flagged for a closer look

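The difference between 16HPI and 8HPI passed edgeR's quasi-likelihood test, Benjamini-Hochberg adjusted, in 8 members, so that their distance from control differed between those times. The log2 values were -0.50 for *Scn1a*, -0.43 for *Scn11a*, -0.39 for *Scn8a*, -0.32 for *Scn2b*, -0.31 for *Scn9a*, -0.24 for *Scn3a*, -0.23 for *Scn10a* and -0.17 for *Scn2a*. Between 24HPI and 16HPI the difference passed in *Scn1a* alone, at 0.24.

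*Scn2b* was above control at 3HPI by 0.08 on the log2 scale, higher in 3 of 3 replicate numbers, and below control in 3 of 3 at 1HPI and 16HPI. The difference between 3HPI and those times was not tested. With 3 samples in each group, single libraries were not tested for standing apart.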

How the results depend on the processing

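The 16HPI count stayed at 6 to 9 of 9 members in every alternative. Against control, the counts at 1, 8 and 24HPI were 0, 0 and 1 without the replicate block, and between 16HPI and 8HPI it was 1 and between 24HPI and 16HPI 0. When RUVs replaced the block, the counts at 1 and 8HPI were 0 and 1, and between 16HPI and 8HPI and between 24HPI and 16HPI 4 and 0. At 1HPI the count was 1 with upper-quartile factors, 1 with over 1 CPM in all 18 libraries, 0 with GC and length offsets and 5 with the 2 compared groups alone. At 3HPI the DESeq2 Wald test passed 3, and between 24HPI and 16HPI the GC and length offsets passed 3. Leaving out 1 library gave 0 to 2 members at 1HPI, 0 to 1 at 3HPI, 1 to 4 at 8HPI, 5 to 7 between 16HPI and 8HPI and 0 to 3 between 24HPI and 16HPI. Log2 fold changes near 0 turned direction: *Scn3b* at 1HPI was 0.001 with upper-quartile factors and -0.05 to 0.019 with 1 library left out, *Scn2b* at 8HPI -0.007 to 0.049, and between 24HPI and 16HPI *Scn8a* -0.009 to 0.044 and *Scn10a* -0.051 to 0.09. The cause was not tested, except that leaving out a library leaves fewer samples. *Rest*, *Runx1* and *Scn4b* rest on few reads, with control means of 0.877, 1.81 and 4.46 CPM.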
